A study of Mus musculus with 8 samples.

Results

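The genes described here are 53 members of the Wnt signalling pathway, out of 21368 genes named on the array. They were chosen by name and not by their values, though with earlier results of these data known. They comprise 19 Wnt ligands, 12 receptors (the Frizzled genes Fzd1 to Fzd10 and the co-receptors Lrp5 and Lrp6), 10 secreted inhibitors, 7 R-spondins and Lgr receptors, and 5 target and feedback genes. The array carried 64 probes for them, 1 for each of 42 genes and 2 for each of 11 genes. Of the 53 genes, 41 had a probe bright enough to test, and the other 12 are described with their role. RNA was measured in 8 mouse mammary tumours, each on 1 2-colour Agilent array. The 4 FGFR1 KO samples came from K19-tva mice carrying a floxed fgfr1 gene (fgfr1loxP/loxP, first kept in the ICR strain and backcrossed into FVB), and the 4 WT samples came from control K19-tva mice. Both groups share the FVB strain and the K19-tva transgene, named for the keratin 19 promoter and for tva, the receptor of an avian retrovirus. How the floxed gene was recombined, in which cells, what induced the tumours and how old the mice were are details not given in the sources used here. Whether each tumour is from its own animal is not stated in the labels, so the p-values below reflect only the spread among these samples, which may be technical. Having 4 arrays a group limits the precision of every value.

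Wnt ligands are secreted lipid-modified proteins that bind a Frizzled receptor together with Lrp5 or Lrp6, which stops the degradation of beta-catenin and lets it act with Lef1 and Tcf factors on target genes. Dickkopf proteins, secreted Frizzled-related proteins and Wif1 restrain this signal outside the cell, while R-spondins strengthen it through Lgr receptors by removing the ubiquitin ligases Znrf3 and Rnf43. In the mouse mammary gland, Wnt signalling maintains stem cells and side branching, and the first Wnt gene was found as a gene activated by mouse mammary tumour virus.

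Values are log2 ratios of tumour RNA (red) to a common human reference RNA (green), and a difference is FGFR1 KO minus WT. Since each probe has its own ratio to the reference, levels are compared only between arrays for the same probe. The targeted gene, Fgfr1, had 3 tested probes, whose differences were -0.00 ± 0.12, -0.10 ± 0.41 and -0.49 ± 0.66 (SE), with limma adjusted p of 1.00, 0.951 and 0.841. Where these probes lie relative to the floxed exons is not known here, so they do not check the labels. The share of spots with red signal well above background was 68.9% to 83.9% in FGFR1 KO and 43.9% to 69.2% in WT. Counts of arrays above background, given below for single genes, rest on these calls and do not measure a difference between groups. The arrays shared 1 slide, FGFR1 KO filling one of its rows and WT the other, so that row and genotype cannot be told apart. WT 2 correlated least with the other arrays (mean of 0.379), and its skeletal muscle markers had a median of 8.43, where the other 7 arrays had -0.24 to 1.77. The luminal epithelial markers that define mammary epithelium had medians of 1.59 to 2.32 on the FGFR1 KO arrays and of -0.52 to 2.55 on the WT arrays, with the lowest on WT 2. A rectangle of the array, called the bright part below, held negative-control spots that shone on some WT arrays. There the median of 96 negative controls was 0 to 6 red intensity units above local background on the FGFR1 KO arrays and 6 to 41 units on the WT arrays, while 212 controls outside it stood at 1 to 7 and 2.25 to 6.75 units. Of the 41 genes tested, 14 were represented by a spot in the bright part (34.1%), as were 33.8% of all 16757 genes tested.

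No Wnt pathway gene passed the test between FGFR1 KO and WT tumours. By limma, with p-values adjusted by Benjamini-Hochberg across the 39782 probes tested, 0 of 41 members had an adjusted p under 0.05, where 4 probes in all (0.0101%) and 0 of 16757 genes (0%) passed. Those 4 probes bear no gene name here and all lie in the bright part. At an unadjusted limma p under 0.05 there were 5 members (Wnt9a, Wnt8a, Dkk4, Rspo4 and Sfrp2), which is 12.2% of 41, against 7.88% of all genes and 8.48% of all probes. Inside the bright part this held for 4 of 14 members and 686 of 5658 genes. Outside it, 1 of 27 members and 634 of 11099 genes had such a p. The arrays of both groups did not overlap for 3 members, 7.32% of 41, against 4.35% of all genes. These were Wnt8a and Wnt9a, lower in FGFR1 KO (2.50% of all genes), and Dkk4, higher in FGFR1 KO (1.85% of all genes). All 3 lie in the bright part, where 6.49% of genes did not overlap (5.36% lower and 1.13% higher in FGFR1 KO), and outside it this held for 0 of 27 members, against 3.26% of genes there.

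Differences below 0 were more frequent than above, at 26 of 41 members (63.4%), against 50.3% of all genes, while 49.7% of all genes were above. The median difference was -0.13 over the members and -0.00 over all genes tested. It was -0.16 for members and -0.10 for all genes inside the bright part, and -0.13 for members and 0.04 for all genes outside it. By role, the median was -0.03 over 15 ligands, -0.19 over 11 receptors, -0.13 over 9 secreted inhibitors, -0.43 over 2 genes of the R-spondin and Lgr group, and -0.39 over 4 target and feedback genes. These medians were not tested, and the median standard error of a single member was 0.26.

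**Figure D1:**
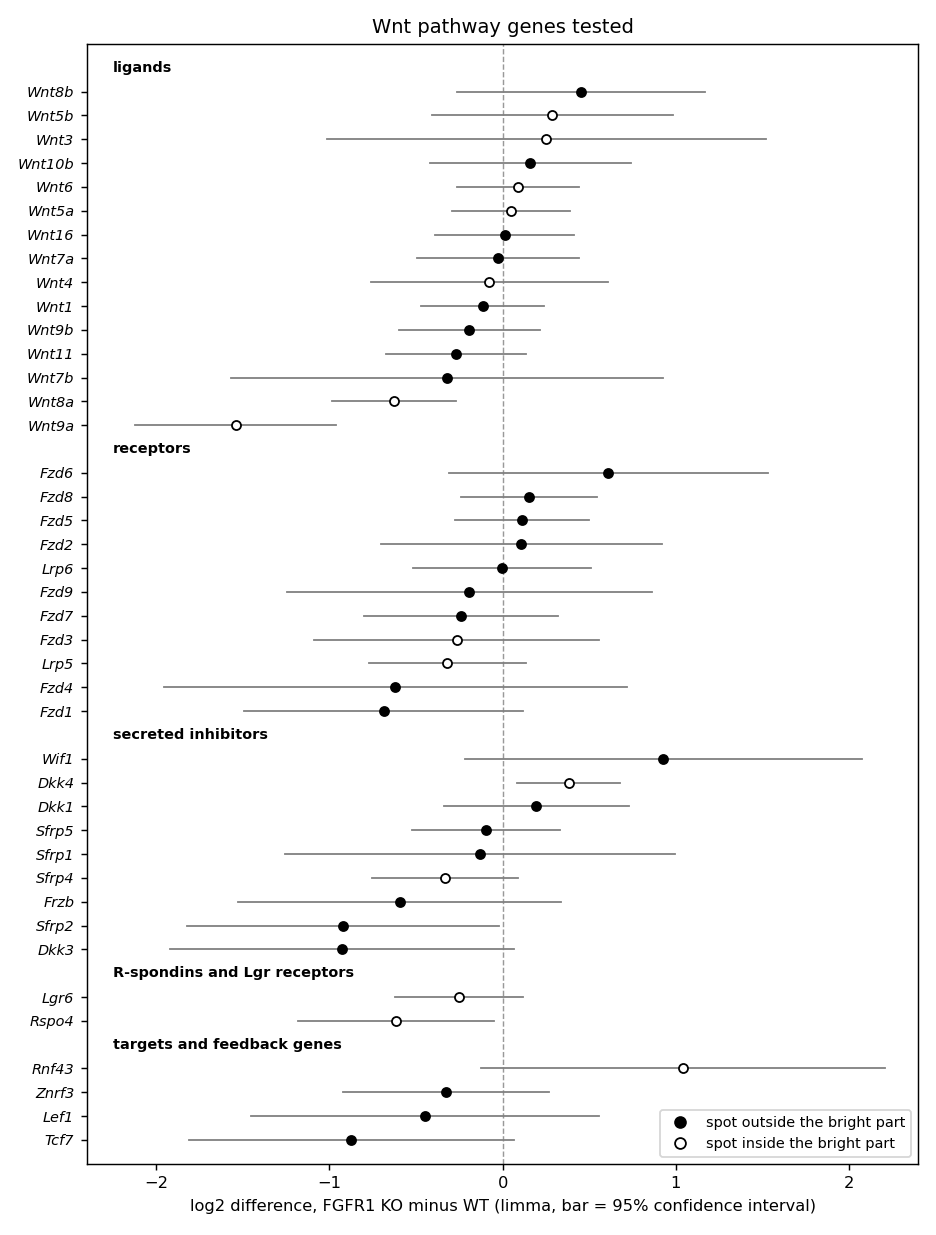
Log2 difference between FGFR1 KO and WT tumours for the 41 Wnt pathway genes tested, ordered by role, with limma's 95% confidence interval as a bar (4 arrays a group). Filled points are spots outside the bright part and open points are spots inside it, and the intervals of Wnt9a, Wnt8a, Dkk4, Rspo4 and Sfrp2 leave out 0 before adjustment.

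Among the ligands, 15 of 19 genes were tested, 7 with a difference above 0 and 8 below. Wnt9a, a ligand of joint formation, had values of -0.62, -0.24, -0.26 and -1.40 on FGFR1 KO arrays 1 to 4, against 1.06, 0.90, 0.94 and 0.75 on WT arrays 1 to 4. All FGFR1 KO arrays lay below all WT arrays. The means were -0.63 ± 0.54 in FGFR1 KO and 0.91 ± 0.13 in WT (SD, n = 4 each), and the difference of -1.54 had a 95% interval of -2.12 to -0.96, a limma adjusted p of 0.140 and an exact permutation p of 0.029, the smallest that 4 against 4 arrays can give. The spot was well above background on 2 FGFR1 KO arrays and 3 WT arrays. Its red intensity above local background was 68, 22, 40 and 15.5 on the FGFR1 KO arrays, against 347, 288.5 and 180.5 on WT 1, WT 3 and WT 4, and it was lowest of the WT arrays on WT 2. The 7 negative controls around it, which match no gene, had medians of -2, 1.5, 2.5 and 2 units on the FGFR1 KO arrays and 159.5, 235, 94 and 162 units on the WT arrays. The controls beside Wnt9a were thus bright on the same 4 arrays as the gene. The gene's own spot had 218%, 69.8%, 307% and 111% of their median on WT 1 to 4. The difference was -2.41 with Agilent's own log ratio and -2.62 with red processed signal alone. Of the 5658 genes in the bright part, 71 had a difference as low as that of Wnt9a or lower.

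Wnt8a, a ligand of the early embryo, had values of 0.64, 0.69, 0.59 and 0.28 on the FGFR1 KO arrays, against 1.43, 0.96, 1.21 and 1.10 on the WT arrays. The groups did not overlap, with FGFR1 KO lower. The means were 0.55 ± 0.19 in FGFR1 KO and 1.18 ± 0.20 in WT (SD, n = 4 each), a difference of -0.63 with an interval of -0.99 to -0.27, a limma adjusted p of 0.355 and an exact permutation p of 0.029. Red intensity at this spot was 369.5, 124.5, 258 and 273 units on the FGFR1 KO arrays and 492, 228, 657 and 302 units on the WT arrays. The 7 negative controls around it had medians of 0, 4, 5 and 7.5 units on the FGFR1 KO arrays and 61.5, 3, 133 and 5 units on the WT arrays. They were bright on WT 1 and WT 3 and near 0 on WT 2 and WT 4. In the bright part, 776 of 5658 genes (13.7%) had a difference as low or lower.

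**Figure D2:**
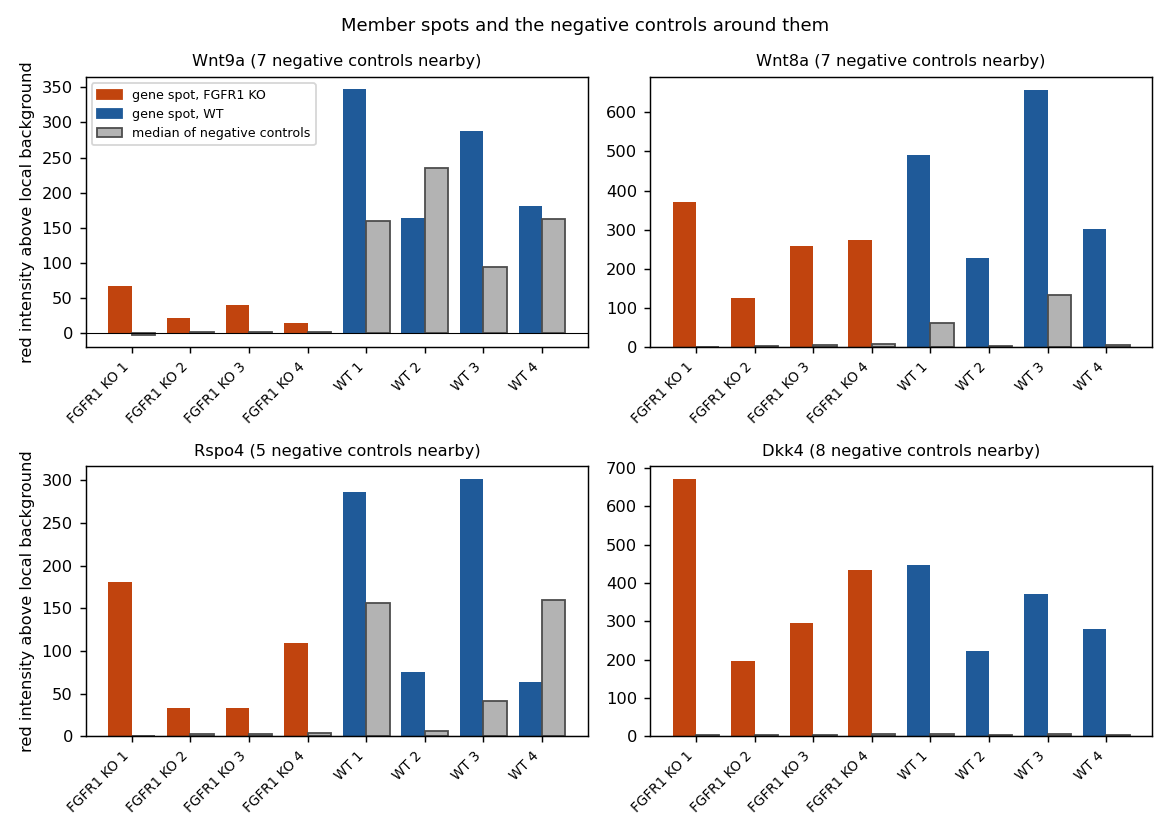
Red intensity above local background at the spots of Wnt9a, Wnt8a, Rspo4 and Dkk4 on each array, beside the median of the 5 to 8 negative-control spots within 20 rows and columns. Around Wnt9a the controls reach 94 to 235 units on the WT arrays and stay at or below 2.5 on the FGFR1 KO arrays, while around Dkk4 they stay at or below 6.5 on all 8.

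The other 13 tested ligands had differences of -0.32 to 0.45, and their groups overlapped. Wnt1, activated by mouse mammary tumour virus in mammary tumours, differed by -0.11 ± 0.16 (SE). Wnt4, which acts downstream of progesterone in side branching, differed by -0.08 ± 0.30 at its representative probe. Its second probe differed by 0.00 ± 0.66, with a 95% interval as wide as -1.48 to 1.49. Wnt10b, another ligand of the mammary gland, differed by 0.16 ± 0.26. For Wnt5a, which signals mostly without beta-catenin, the values were 0.29, 0.07, 0.14 and -0.06 in FGFR1 KO and 0.32, -0.05, -0.10 and 0.07 in WT. They overlap throughout, and the difference of 0.05 had a 95% interval of -0.29 to 0.39. Its relative Wnt5b had a difference of 0.29 ± 0.31, and its lowest array, WT 2, stood at -0.07. The intervals were wider for Wnt3, -1.01 to 1.52, and for Wnt7b, -1.57 to 0.93, whose spots were well above background on 4 and 6 of 8 arrays.

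Wnt8b differed by 0.45 ± 0.32, and by 0.11 without FGFR1 KO 4, which stood at 1.83. At its second probe, in the bright part and not tested, FGFR1 KO 4 stood at -0.09. The FGFR1 KO arrays had -0.43 to 0.23 there and the WT arrays -0.41 to 0.18. Wnt6, Wnt7a, Wnt9b, Wnt11 and Wnt16 had differences of -0.27 to 0.09, and Wnt7a had 3 WT values. Of the 4 ligands not tested, Wnt3a was above background on no array, Wnt2 on 3 FGFR1 KO arrays and no WT array, and Wnt10a on 2 FGFR1 KO arrays and no WT array. Wnt2b was above background on no FGFR1 KO array and 1 WT array. This spot is in the bright part, with red intensities of 7, 5, 6 and 17 units in FGFR1 KO and 195.5, 125, 155 and 5.5 units in WT. The 5 controls around Wnt2b had medians of 0, -1, 2 and 4 units in FGFR1 KO and 240, 125, 86 and 6 units in WT, so they were bright on the same 3 WT arrays.

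Among the receptors, 11 of 12 genes were tested, 4 with a difference above 0 and 7 below, and 0 at an unadjusted p under 0.05. Fzd1, a receptor of the beta-catenin branch, had values of -1.09, -0.91, -0.44 and -1.05 in FGFR1 KO and -0.28, -1.19, 0.58 and 0.15 in WT. WT 2 was the lowest array of all, and the other WT arrays lay above every FGFR1 KO array. The difference was -0.69 ± 0.35 (SE), with a limma adjusted p of 0.634 and an exact permutation p of 0.171, and -1.02 without WT 2. The co-receptor Lrp5 had values of 0.13, 0.12, 0.41 and 0.33 in FGFR1 KO and 0.48, 0.34, 1.11 and 0.32 in WT. Its groups overlapped and WT 3 was the highest, so that the difference was -0.32 ± 0.20 (limma adjusted p of 0.682) with all arrays and -0.14 without WT 3. Its partner Lrp6 differed by -0.00 ± 0.23, with an interval of -0.52 to 0.51.

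Fzd4, which also binds the retinal ligand Norrin, differed by -0.62 ± 0.59, and by -0.00 without WT 2, which stood at 3.02. For Fzd9 the difference was -0.19 ± 0.47, and 0.34 without WT 2, which stood at 2.63. WT 2 was instead the lowest array for Fzd6, a receptor of planar polarity, whose difference was 0.61 ± 0.41 with it and 0.21 without it. WT 2 is the array with the high skeletal muscle and the low luminal epithelial markers. The adipocyte markers (9 of 9 tested, all with a difference below 0 and a median of -1.70) had medians of 0.16 to 0.35 in FGFR1 KO and of 3.15, 3.87, 0.43 and 0.42 on WT 1 to 4, so they were high on WT 1 and WT 2. The part of these tissues was not tested, neither in the receptor values nor in those of Dkk3, Frzb and Rnf43 below. Fzd2, Fzd3, Fzd5, Fzd7 and Fzd8 had differences of -0.26 to 0.15. Fzd8 was above background on 4 FGFR1 KO arrays and no WT array, and its difference of 0.15 ± 0.17 (limma adjusted p of 0.809) was -0.33 with Agilent's own log ratio. Fzd10, in the bright part, was above background on 1 array of each group and was not tested.

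Among the secreted inhibitors, 9 of 10 genes were tested, 3 with a difference above 0 and 6 below. Dkk4, an inhibitor that binds Lrp5 and Lrp6, had values of 0.32, 0.19, 0.01 and 0.16 in FGFR1 KO and -0.07, -0.25, -0.26 and -0.27 in WT. All FGFR1 KO arrays lay above all WT arrays. The means were 0.17 ± 0.13 in FGFR1 KO and -0.21 ± 0.10 in WT (SD, n = 4 each), a difference of 0.38 with an interval of 0.08 to 0.68, a limma adjusted p of 0.486 and an exact permutation p of 0.029. Red intensity at this spot was 670.5, 196, 295.5 and 434 units in FGFR1 KO and 446.5, 222, 372.5 and 279.5 units in WT. These intensities overlap between the groups, unlike the normalized ratios. The 8 negative controls around Dkk4 had medians of 3 to 5.75 units in FGFR1 KO and 2.5 to 6.5 units in WT, so they were not bright on any array, although the spot is in the bright part. In that part, 6.82% of genes had a difference as high or higher.

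Sfrp2, a Wnt-binding protein made by mesenchyme, had values of -0.99, -0.85, -0.33 and -0.82 in FGFR1 KO and 0.32, -1.10, 0.88 and 0.60 in WT. As for Fzd1, WT 2 was the lowest of all arrays and the other WT arrays lay above every FGFR1 KO array. The difference was -0.92 ± 0.40 (SE), with an interval of -1.82 to -0.02, a limma adjusted p of 0.582 and an exact permutation p of 0.143, and it was -1.35 without WT 2. Dkk3, a divergent Dickkopf protein, had values of 0.27, -0.48, -0.10 and -0.39 in FGFR1 KO and -0.28, 2.06, 0.56 and 0.65 in WT. Here WT 2 was the highest array and WT 1 lay among the FGFR1 KO arrays. Its difference was -0.93 ± 0.44 (limma adjusted p of 0.608, exact permutation p of 0.0857), and -0.49 without WT 2. With Agilent's own log ratio it was -1.55.

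Sfrp4, another member of the Sfrp family, had values of 0.57, -0.00, 0.34 and 0.27 in FGFR1 KO and 0.79, 0.40, 0.92 and 0.39 in WT, a difference of -0.33 ± 0.19 (limma adjusted p of 0.658). Frzb, a further relative, differed by -0.60 ± 0.41, by -0.29 without WT 2, and by -1.44 with Agilent's own log ratio. Beside these genes, the fibroblast markers (10 of 10 tested) had medians of -0.96, -1.21, -0.68 and -2.02 on the FGFR1 KO arrays and 0.19, -0.55, 0.18 and -0.17 on the WT arrays. All 10 had a difference below 0, with a median of -1.67. For 6 of the 10 the groups did not overlap, with FGFR1 KO lower, against 2.50% of all genes. The part of fibroblasts in the values of Sfrp2, Dkk3, Sfrp4, Frzb and Fzd1 was not tested, and in these bulk tumours fewer cells of a type and less RNA per cell cannot be told apart.

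Wif1, an inhibitor that binds Wnt ligands directly, had values of 3.16, 0.41, 1.37 and 1.24 in FGFR1 KO and 0.44, 0.58, 0.42 and 1.04 in WT. The high mean in FGFR1 KO comes with 1 array, FGFR1 KO 1, since the difference of 0.93 ± 0.51 (limma adjusted p of 0.650) was 0.39 without it. With Agilent's own log ratio it was 3.01. On that array the basal and myoepithelial markers also had their highest median, 1.95, where FGFR1 KO 2 to 4 had 0.22 to 0.97 and WT had 0.02 to 1.46. FGFR1 KO 1 was the highest array for Myh11, Mylk, Cnn1, Acta2 and Oxtr of that list. For Krt5, Krt14, Krt17 and Trp63 another array was higher, and Krt14 stood at 0.44 on FGFR1 KO 1. The part of these markers in the Wif1 value was not tested. Sfrp1, Sfrp5 and Dkk1 had differences of -0.13 ± 0.50, -0.10 ± 0.19 and 0.19 ± 0.23. Dkk2 was above background on no array.

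In the R-spondin and Lgr group, 2 of 7 genes were tested, both in the bright part. Rspo4, an R-spondin required for nail growth in humans, had values of 0.11, -0.16, -0.45 and -0.34 in FGFR1 KO and 0.56, 0.53, 0.83 and -0.29 in WT. WT 4 lay among the FGFR1 KO arrays and the other WT arrays above them. The difference was -0.62 ± 0.25 (SE), with an interval of -1.18 to -0.05, a limma adjusted p of 0.558 and an exact permutation p of 0.0857. It was -0.31 with Agilent's own log ratio and -0.14 with red processed signal alone. The 5 negative controls around Rspo4 had medians of 1 to 4 units in FGFR1 KO and of 156, 6, 41.5 and 160 units on WT 1 to 4, against 286, 75.5, 301 and 64 units at the gene's own spot. Lgr6, a receptor of skin stem cells, had values of -0.25, -0.49, -0.17 and -0.17 in FGFR1 KO and -0.18, 0.18, 0.20 and -0.27 in WT. Its groups overlapped, with a difference of -0.25 ± 0.16 (limma adjusted p of 0.694).

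Rspo2, Rspo3 and Lgr5, the intestinal stem cell marker, were above background on no array. Lgr4 was above background on 1 FGFR1 KO array. Rspo1, an R-spondin of the mammary gland, was above background on 2 FGFR1 KO arrays and no WT array, with values of 2.37, 0.31, 0.58 and 0.35 in FGFR1 KO and 0.66, 0.20, 0.30 and 0.35 in WT. The high value is again that of FGFR1 KO 1.

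**Figure D3:**
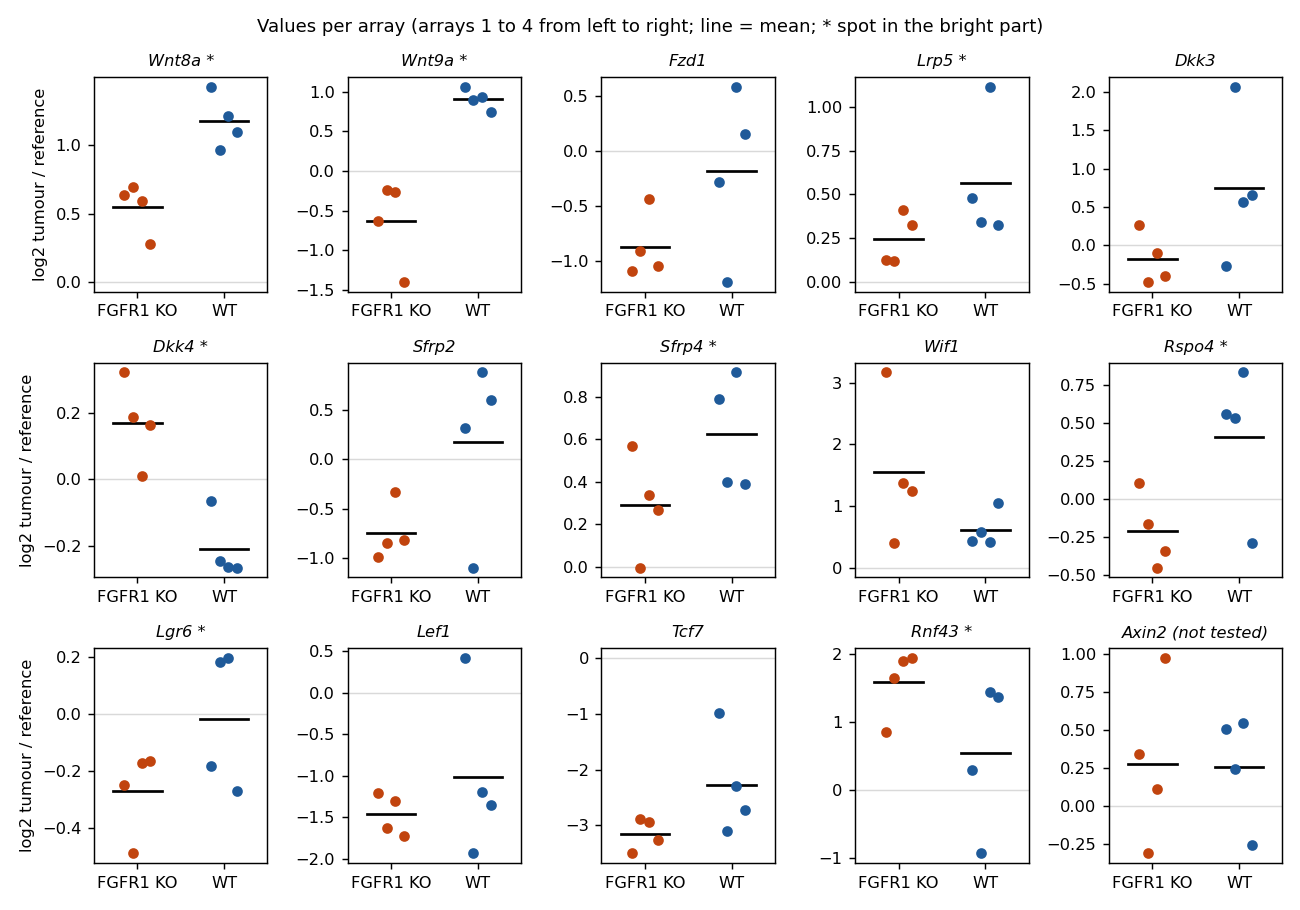
Log2 ratio of tumour to reference RNA on each array for 15 Wnt pathway genes, FGFR1 KO left and WT right, with the group mean as a line (4 arrays a group) and an asterisk for spots in the bright part. The groups are apart for Wnt8a, Wnt9a and Dkk4 and overlap for the other 12, and single arrays stand out for Wif1 (FGFR1 KO 1), Dkk3 (WT 2), Lef1 and Tcf7 (WT 1).

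Of the 5 target and feedback genes, 4 were tested, 1 with a difference above 0 and 3 below, and 0 at an unadjusted p under 0.05. Axin2, a scaffold of the destruction complex and the most widely used readout of beta-catenin activity, was not tested at either of its probes. The probe outside the bright part was above background on 3 FGFR1 KO arrays and no WT array, with values of 0.34, -0.31, 0.11 and 0.98 in FGFR1 KO and 0.51, 0.25, 0.55 and -0.26 in WT. Red intensity there was 87.5, 18, 54.5 and 168 units in FGFR1 KO and 89, 50.5, 122 and 45 units in WT. The groups overlap. The probe inside the bright part was above background on no array, with values of -0.23, 0.03, 0.00 and -0.04 in FGFR1 KO and 1.57, -0.09, 1.20 and -0.17 in WT. Its high arrays, WT 1 and WT 3, are those where the 10 negative controls around it were bright, with medians of at most 7.25 units in FGFR1 KO and of 89.5, 11, 99 and 7.25 units on WT 1 to 4. At the probe outside the bright part, WT 1 and WT 3 were also the highest of the WT arrays, while FGFR1 KO 4 was higher than both. No difference in Axin2 could be measured at these intensities.

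Lef1 and Tcf7 encode the DNA-binding partners of beta-catenin, and both also act in lymphocyte development. Lef1 had values of -1.20, -1.62, -1.30 and -1.72 in FGFR1 KO and 0.42, -1.93, -1.20 and -1.35 in WT. WT 1 stood above all other arrays, and the other 3 WT arrays lay between -1.93, the lowest value of all, and -1.20, level with the highest FGFR1 KO array. The difference was -0.45 ± 0.44 (SE, limma adjusted p of 0.782), and 0.03 without WT 1. The second Lef1 probe, in the bright part and not tested, also had its highest value on WT 1, with 1.21, where FGFR1 KO had -2.67 to -1.72 and WT 2 to 4 had -2.72 to -2.32. At this spot WT 1 had 1042.5 red intensity units, and the 4 negative controls around it had a median of 90.5 units there. Tcf7 had values of -3.50, -2.89, -2.94 and -3.25 in FGFR1 KO and -0.98, -3.09, -2.30 and -2.72 in WT. WT 1 was again the highest, and the groups overlapped through WT 2. The difference was -0.87 ± 0.41 (limma adjusted p of 0.609, exact permutation p of 0.0857), and -0.44 without WT 1. The second Tcf7 probe, not tested, was also highest on WT 1, at -1.02. There FGFR1 KO had -2.65 to -1.80 and WT 2 to 4 had -2.61 to -2.16, within the FGFR1 KO range.

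On WT 1 the T cell markers (10 of 10 tested) had a median of 0.75, where FGFR1 KO had -0.33 to -0.02 and WT 2 to 4 had -0.18 to -0.11. The B cell markers (6 of 6 tested) had a median of 2.20 on WT 1, where FGFR1 KO had -0.31 to -0.19 and WT 2 to 4 had -0.30 to -0.16. Both marker lists were added after the values of Lef1 and Tcf7 had been seen, and their part in those values was not tested.

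**Figure D4:**
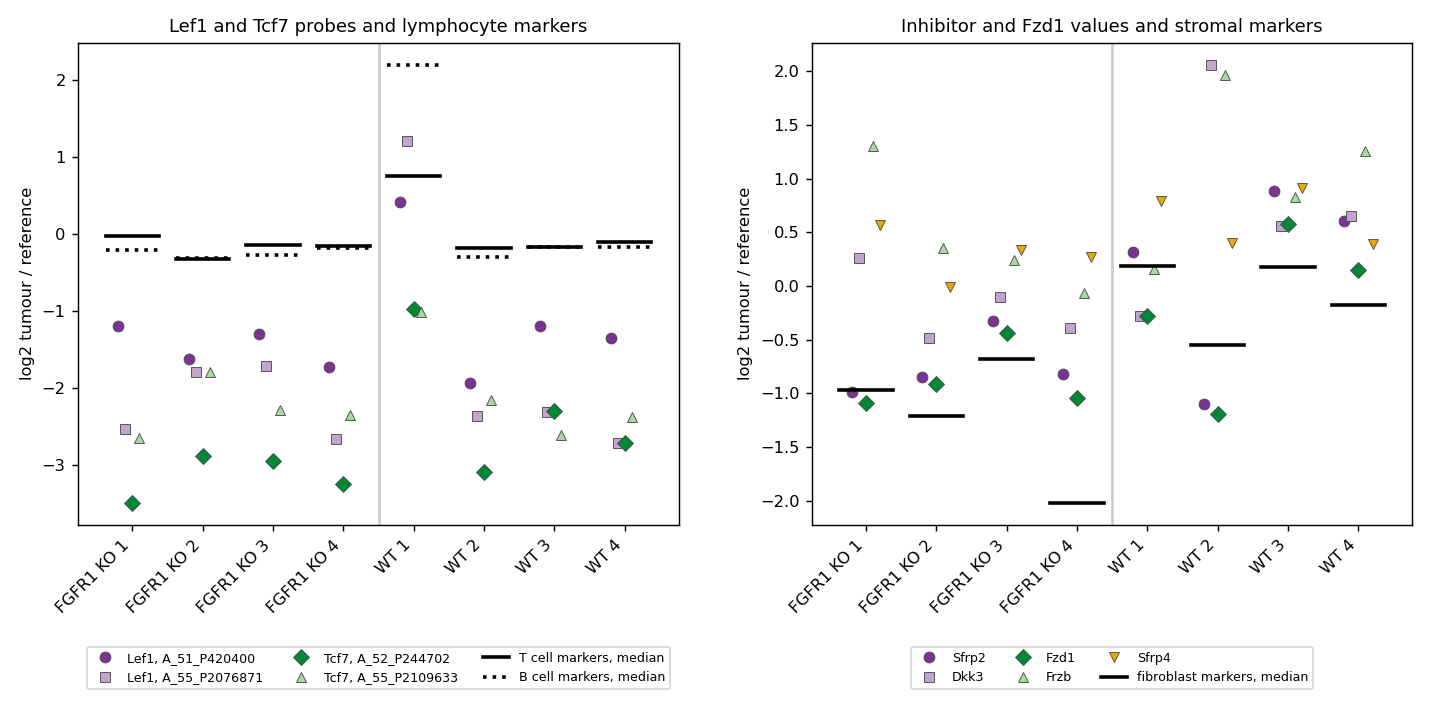
Log2 ratio of tumour to reference RNA on each array for both probes of Lef1 and of Tcf7 beside the medians of T cell and B cell markers (left), and for Sfrp2, Dkk3, Fzd1, Frzb and Sfrp4 beside the median of fibroblast markers (right). On the left, all 4 probes and both marker medians are highest on WT 1; on the right, the fibroblast median is at -2.02 to -0.68 in FGFR1 KO and at -0.55 to 0.19 in WT.

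Rnf43 and Znrf3 encode the ubiquitin ligases that remove Frizzled receptors. Rnf43, in the bright part, had values of 0.85, 1.64, 1.90 and 1.94 in FGFR1 KO and 0.29, -0.93, 1.43 and 1.36 in WT. WT 2 was the lowest and the groups overlapped, and the difference of 1.04 ± 0.51 (limma adjusted p of 0.621) was 0.55 without WT 2 and 0.18 without WT 1 and WT 2, and 1.72 with red processed signal alone. The luminal epithelial markers were lowest on the same 2 arrays, with medians of 1.22 on WT 1 and -0.52 on WT 2, and their part in the value was not tested. Znrf3 differed by -0.33 ± 0.26, and by -0.00 with red processed signal alone, with FGFR1 KO 4 at 0.65 above the other FGFR1 KO arrays at -0.51 to -0.37.

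The 7-base sites that Lef1 and Tcf factors prefer (CTTTGAA or CTTTGAT or CTTTGTA or CTTTGTT, on either strand) were looked for in the 250 bases before each gene's start, in RefSeq promoters of build GRCm38.p6. Of 43 windows for 35 members in that table, 5 held a site, of Dkk1, Fzd7, Lef1, Wnt11 and Wnt5b, against 4874 of 32851 windows of all genes (14.8%). Windows are shown for the targets Axin2 and Lef1, whose values are given above, and for Dkk1, the only member window with 2 sites, with the sites in capitals and the gene's strand written 5′ to 3′. The Axin2 window (chr11:108920099-108920348, plus strand) holds none of the 4 sites, and the Dkk1 window (chr19:30549497-30549746, minus strand) holds sites 117 and 98 bases before the start. The Lef1 window (chr3:131156044-131156293, plus strand, 1 of 4 starts) holds a site on the opposite strand 147 bases before the start. It was picked for its site, and the windows of the other Lef1 starts hold none.
Axin2: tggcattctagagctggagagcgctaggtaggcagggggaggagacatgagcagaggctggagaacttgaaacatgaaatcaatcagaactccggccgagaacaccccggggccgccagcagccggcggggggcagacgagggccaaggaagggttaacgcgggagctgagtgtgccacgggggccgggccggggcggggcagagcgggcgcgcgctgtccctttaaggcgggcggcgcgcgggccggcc
Dkk1: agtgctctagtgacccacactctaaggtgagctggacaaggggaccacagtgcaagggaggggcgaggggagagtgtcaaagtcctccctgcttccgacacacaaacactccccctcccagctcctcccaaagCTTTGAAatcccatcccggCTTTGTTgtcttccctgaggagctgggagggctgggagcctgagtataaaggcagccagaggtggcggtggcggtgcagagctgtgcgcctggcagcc
Lef1: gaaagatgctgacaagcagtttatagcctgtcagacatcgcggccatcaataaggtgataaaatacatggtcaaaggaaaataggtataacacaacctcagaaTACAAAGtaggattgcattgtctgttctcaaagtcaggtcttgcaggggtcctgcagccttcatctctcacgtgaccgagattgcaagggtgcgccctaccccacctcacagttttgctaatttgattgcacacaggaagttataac
A match is a run of letters and does not show binding. Dkk1, whose window holds 2 sites, had values of 0.86, -0.17, 0.09 and -0.03 in FGFR1 KO and 0.10, -0.04, -0.27 and 0.18 in WT, with groups that overlap.

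Other genes of the pathway were read from 4 further lists, and 0 of their genes passed limma's adjusted test. Of the intracellular transducers and the destruction complex, 20 of 21 genes were tested, 11 with a difference above 0 and 9 below, with a median of 0.11. In this list Dvl3, which relays the Frizzled signal, had values of -0.18, -0.12, 0.08 and -0.02 in FGFR1 KO and 1.43, 0.29, 2.02 and 0.65 in WT. The groups did not overlap for Dvl3, lower in FGFR1 KO and the only 1 of 20 genes in the list. Of all genes tested, 4.35% did not overlap, 2.50% being lower in FGFR1 KO. Outside the bright part, where the Dvl3 spot lies, 116 of 11099 genes were lower without overlap. Its difference was -1.16 ± 0.34 (SE), with a limma adjusted p of 0.440. Tcf7l2, a partner of beta-catenin in epithelia, differed by 0.46 ± 0.21 (limma adjusted p of 0.603). Of the genes of Wnt secretion and extracellular handling, 7 of 9 were tested, with a median of -0.08. In that list the Dickkopf receptor Kremen1 differed by -0.53 ± 0.39 and Tnfrsf19 by 0.43 ± 0.46.

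Of the alternative receptors and planar polarity genes, 11 of 13 were tested, 8 with a difference above 0 and 3 below, with a median of 0.20. In that list Vangl1, a core polarity protein, differed by 0.86 ± 0.40 with overlapping groups. Prickle2, another polarity gene, differed by 0.30 ± 0.15 (limma adjusted p of 0.621), with values of 0.11, 0.11, 0.49 and 0.14 in FGFR1 KO and -0.27, -0.01, 0.02 and -0.08 in WT. The groups did not overlap for Prickle2, higher in FGFR1 KO and the only 1 of 11 genes in the list. Of all genes, 4.35% did not overlap, 1.85% being higher in FGFR1 KO. Of 13 further targets and feedback genes, all tested, 7 were above 0 and 6 below, with a median of 0.02. Myc differed by 0.87 ± 0.43, and WT 2 was its lowest array at -3.40. Tcf4, an E-box factor gene whose symbol is also an old name of Tcf7l2, differed by -0.92 ± 0.34 (limma adjusted p of 0.523).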

How the data were processed

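The members and the lists were chosen with earlier results of these data known. Per the file headers, Agilent Feature Extraction 11.0.1.1 made the files, and the deposited medians of signal and background are linear intensities of each spot without background correction. The file's own ratio is, per the file headers, a log10 of red to green after Agilent's own background subtraction and dye normalization. Judged from its values, the authors' deposited series matrix holds log2 red to green. Its columns correlated at 0.993 to 0.997 with the values used here, and their medians for FGFR1 KO 1 to 4 and WT 1 to 4 were 0.0152, -0.0155, -0.00112, 0.00458, -0.00481, -0.00181, -0.00562 and 0.00171. How it was normalized and centred stays unknown. The labelling protocol puts tumour RNA in red, while the label field names only cy3. Green varied less within groups (median SD of 0.158 in FGFR1 KO and 0.177 in WT over 22367 spots, against 0.270 and 0.357 in red) and was taken as the reference. The reference RNA is human, so a ratio has meaning only between arrays.

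Background was corrected by normexp (offset 50) on median signals, which stand in for the mean signals, not used here. Ratios were normalized by loess within arrays, with control and outlier spots at weight 0, in R 4.3.3 with limma 3.58.1. Of 55681 probes, those whose red signal was well above background on 4 or more of 8 arrays, with 3 or more values a group, were tested by lmFit and eBayes (two-sided), and p-values were adjusted by Benjamini-Hochberg over all of them, with a threshold of 0.05. A gene is represented by its tested probe with the highest mean red signal. Names came from RefSeq accessions in the GRCm38.p6 gene table (28331 probes, 21368 genes). The exact permutation test used all 70 splits. The bright part was set from negative-control spots in an earlier look at these data and holds 18533 of 59305 non-control spots. Values per array are given for members past the threshold, the 12 with the smallest p, the 2 with the smallest p in each role, members without overlap, members whose probes differ in sign by over 0.5 (none), and Axin2, Lef1 and Tcf7. Values of other genes were added after they were seen. The test was checked on simulated data. Alternatives covered background correction, scaling, filters, probe choice, array weights, the replicate number as a block and each array left out.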

Additional observations from a re-analysis of the deposited data

Results flagged for a closer look

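In each of 81 groups of 4 values (a probe in FGFR1 KO or in WT), the highest and the lowest array were compared with the rest, and 7 stood far from the others, where chance gives about 1 in 20. In FGFR1 KO, Wnt8b had its highest value on FGFR1 KO 4, 1.83, with the next at 0.53. Znrf3 was also highest on FGFR1 KO 4, at 0.65, with the next at -0.37. In WT, Fzd9 was highest on WT 2, at 2.63, with the next at 0.65, and Wnt9b was highest on WT 2, at 0.28, with the next at -0.21. Lrp6 had its lowest WT value on WT 1, -0.33, with the next at 0.30. Dkk4 had its highest WT value on WT 1, -0.066, with the next at -0.25. Wnt3 had its lowest WT value on WT 4, -2.19, with the next at -0.07. The spots of Wnt3 and Dkk4 lie in the bright part. No cause was tested for any of these values.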

How the results depend on the processing

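No member passed the threshold in any of the 21 alternatives, and the lowest adjusted p of a member was 0.0599, that of Wnt9a with no filter on dim probes. The difference of Wnt9a ran from -2.62 to -1.28, that of Wnt8a from -0.70 to -0.50 and that of Dkk4 from 0.27 to 0.48. The 4 probes past the threshold over the whole array became 0 with Agilent's log ratio, red processed signal alone, scaling between arrays, probes above background on all 8 arrays, trend and robust eBayes, and also without the bright part or with both WT 1 and WT 2 left out. They became 139 with no filter on dim probes (138 of them in the bright part), 11 with array weights, and 0 to 1 with 1 array left out. With the replicate number as a block 0 probes and 0 members passed. No pairing by number was seen (correlations of same-numbered arrays of -0.04, 0.01, 0.11 and -0.11), and 2 FGFR1 KO arrays and 1 WT array correlated best with their own number. Having 4 arrays a group is too few to settle whether the numbers pair the samples. The receptor median was 0.024 with array weights, and the median of the R-spondin and Lgr group was 0.055 with no filter on dim probes, while the bright part left out gives it no value. The inhibitor median ran from -0.40 (without FGFR1 KO 1) to -0.021 with 1 array left out.

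Of 828 recomputed member differences, 29 changed sign with 1 array left out and 31 in other settings. With red processed signal alone, which moved the median of all genes to 0.10, these were Wnt3 -0.57, Wnt4 0.015, Wnt7a 0.13, Wnt9b 0.033, Fzd2 -0.056, Fzd9 0.034 and Sfrp1 0.26. With Agilent's log ratio they were Wnt4 0.0070, Wnt7a 0.084, Wnt16 -0.040, Fzd3 0.055, Fzd8 -0.33 and Lrp6 0.052, and Wif1 was 3.01. With the series matrix they were Wnt7a 0.0032 and Lrp6 0.0066, with the bright part left out Wnt4 0.0038, with scaling Fzd2 -0.038 and Lrp6 0.037, and with the mean of probes Wnt16 -0.082. With array weights they were Wnt16 -0.038, Fzd9 0.15, Lrp6 0.024 and Sfrp5 0.0059. Without WT 1 and WT 2 they were Wnt5b -0.093, Wnt16 -0.0066, Fzd2 -0.22, Fzd4 0.13, Fzd5 -0.034, Fzd6 -0.046, Fzd9 0.29 and Sfrp5 0.067. With 1 array left out, the sign turned within these ranges: Dkk1 -0.028 to 0.31, Fzd2 -0.058 to 0.46, Fzd9 -0.40 to 0.34, Lef1 -0.75 to 0.032, Lrp6 -0.16 to 0.13, Sfrp1 -0.52 to 0.16, Sfrp5 -0.22 to 0.037, Wnt10b -0.019 to 0.29, Wnt16 -0.096 to 0.13, Wnt3 -0.32 to 0.56, Wnt4 -0.35 to 0.11, Wnt5a -0.013 to 0.14, Wnt6 -0.0022 to 0.16 and Wnt7a -0.14 to 0.17. The cause was not tested. Signal over background limits the 12 untested genes, Axin2 among them.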
